A study of Mus musculus with 16 samples.

Results

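The simple epithelial keratins are 6 of the 53711 genes of the table, taken by symbol: *Krt7* and *Krt8* of type II, and *Krt18*, *Krt19*, *Krt20* and *Krt23* of type I. All 6 were found. No cut on their values was used to choose them, but earlier results of these data were known. The 16 RNA-seq libraries come from mouse embryonic stomachs of the SGGT line, which carries an EGFP knock-in at *Sox2* and a td Tomato knock-in at *Gata4*, each over a wild-type allele (Sox2 EGFP/+; Gata4 tdTomato/+) for the sorted epithelium. The knock-in copies leave 1 wild-type copy of each factor there. EpCAM-positive epithelial cells were sorted by the reporters at E13.5 into Sox2hi (n = 3), Sox2midGata4mid (n = 2) and Gata4hi (n = 3) cells, and at E11.5 into Sox2hi (n = 1) and Gata4hi (n = 1) cells. PDGFRα-positive fibroblasts came from the distal and the proximal stomach of embryos of E13.5, E15.5 or E17.5 (1 library of each region and stage). The fibroblast libraries carry the same strain label, and the reporter genotype of those embryos is not stated otherwise. Whether a library holds 1 embryo or several, and whether libraries of a group come from separate litters, is not stated, so the p-values measure the spread between these libraries, which may be technical.

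Keratins are the intermediate filament proteins of epithelial cells. A filament is built from paired chains, 1 of type I with 1 of type II, and a chain without a partner is usually degraded. *Krt8* and *Krt18* encode the first pair made in simple (one-layered) epithelia, where they give mechanical and stress resistance. *Krt19* is a further type I chain of simple and ductal epithelia, *Krt7* a type II chain of ductal, glandular and transitional epithelia, and *Krt20* a type I chain best known from differentiated gut epithelium and urothelium. *Krt23* is a less studied type I chain. In the stomach the proximal part later becomes stratified squamous epithelium, whose basal layer uses other keratins such as *Krt5*, *Krt14* and *Krt15*, and the distal part becomes columnar glandular epithelium.

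The genes lie on 2 chromosomes in GRCm38. *Krt7* (ENSMUSG00000023039.17) lies at chr15:101411043-101430313 on the plus strand. *Krt8* (ENSMUSG00000049382.10) lies at chr15:101996698-102004482 on the minus strand and *Krt18* (ENSMUSG00000023043.7) at chr15:102028180-102032027 on the plus strand, with 23697 bases between them. *Krt18*, a type I gene, thus lies beside type II genes. The others are on the minus strand of chromosome 11: *Krt19* (ENSMUSG00000020911.14) at 100140810 to 100148665, *Krt20* (ENSMUSG00000035775.2) at 99428403 to 99438150 and *Krt23* (ENSMUSG00000006777.7) at 99477974 to 99493137.

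The sequences just before the starts of the neighbours *Krt8* and *Krt18*, which move together in the data, and of *Krt7*, which does not move with them, are shown for comparison. They are from RefSeq (GRCm38.p6), which held 5 of the 6 members. Each stretch runs 5′ to 3′ on the gene's own strand and ends before both the RefSeq start and the nearby GENCODE start, whichever comes first (*Krt8* chr15:102004483-102004592, minus; *Krt18* chr15:102027966-102028179, plus; *Krt7* chr15:101412153-101412401, plus). In each case that is the GENCODE start, upstream of the RefSeq start from which positions are counted below. The *Krt7* stretch lies inside the longer gene span that the table gives. Capitals mark matches to the letters searched.
Krt8: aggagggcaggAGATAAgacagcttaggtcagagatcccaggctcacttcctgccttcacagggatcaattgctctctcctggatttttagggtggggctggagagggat
Krt18: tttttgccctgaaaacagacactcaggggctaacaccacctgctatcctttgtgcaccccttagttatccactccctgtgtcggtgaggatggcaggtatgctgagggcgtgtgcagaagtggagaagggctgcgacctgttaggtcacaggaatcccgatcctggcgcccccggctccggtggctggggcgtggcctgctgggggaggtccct
Krt7: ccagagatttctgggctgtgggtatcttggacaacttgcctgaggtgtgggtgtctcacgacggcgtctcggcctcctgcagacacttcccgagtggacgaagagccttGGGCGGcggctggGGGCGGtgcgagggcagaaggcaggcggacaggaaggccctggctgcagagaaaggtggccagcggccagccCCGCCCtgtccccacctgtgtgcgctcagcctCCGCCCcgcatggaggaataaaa
The letters searched on both strands, from 250 bases before to 50 after the RefSeq start, covered 5 motifs. A GATA match was any of AGATAA or its variants with T first or G last (TGATAA being one, AGATAG another, TGATAG the last), the SOX letters were AACAAT, the TATA box was TATAAA, the GC box was GGGCGG and the AP-1 letters were TGANTCA. Of 32851 promoters of the same length, 29.8% held a GATA match, 10.7% the SOX letters, 13.6% TATAAA, 35.7% the GC box and 7.81% the AP-1 letters. *Krt8* held 1 GATA match, at −239 to −234 from the RefSeq start and in capitals above, and TATAAA at the RefSeq start itself, beyond the stretch shown (−1 to 5 and, overlapping it on the other strand, −3 to 3). *Krt18* held none of the 5 motifs, so the pair shared none in this window. *Krt7* held 4 GC boxes and nothing else. *Krt20* and *Krt23* each held a GATA match, *Krt20* also TATAAA at −29 to −24, and no member held the SOX or AP-1 letters.

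The authors deposited FPKM, in which a gene's fragments are divided by its length and by the size of the library. FPKM is scaled by length, so levels of different genes can be set side by side, but the table holds no counts and the sequencing depth behind a value is unknown. Low values put the relative depth of the libraries at 0.394 to 1.07 of that of E13.5 Sox2hi replicate 1. The FPKM of a library summed to 436296 to 656588, lowest in the Sox2midGata4mid libraries. The sorted gates matched the labels: *Gata4* was at 3.21 to 7.26 FPKM in Sox2hi, 40.0 to 84.4 in Sox2midGata4mid and 157 to 199 in Gata4hi cells at E13.5, and *Sox2* ran the other way (85.7 to 94.1, 73.3 to 73.8 and 49.9 to 61.2 FPKM). *Epcam* was at 200 to 263 FPKM in the epithelial libraries and 0.346 to 4.95 in the fibroblasts, and *Pdgfra* at 0.354 to 2.65 and 139 to 217 FPKM.

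*Krt18*, *Krt8*, *Krt19* and *Krt7* were among the abundant messages of the early stomach epithelium, and *Krt20* and *Krt23* were low. Over the 10 epithelial libraries the mean level was 267 FPKM for *Krt18*, 210 for *Krt8*, 184 for *Krt19*, 86.0 for *Krt7*, 5.88 for *Krt20* and 1.13 for *Krt23*. *Krt18* ranked between 172 and 444 among all genes of a library, *Krt8* between 215 and 498, *Krt19* between 247 and 587 and *Krt7* between 661 and 1234. *Krt20* ranked between 7659 and 11871 and *Krt23* between 11393 and 16564. Neighbours in this order from *Krt18* to *Krt19* overlapped in their range over the libraries, whereas the highest *Krt7* value lay below every *Krt8* and *Krt19* value, and *Krt20* lay below every *Krt7* value. The ranges of *Krt20* and *Krt23* overlapped. Of the 55 keratin genes in the table, 8 had a mean of at least 5 FPKM in epithelium, and 5 of these were members. The other 3 were *Krt15* (42.5 FPKM), *Krt5* (8.45) and *Krt10* (5.45).

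**Figure D1:**
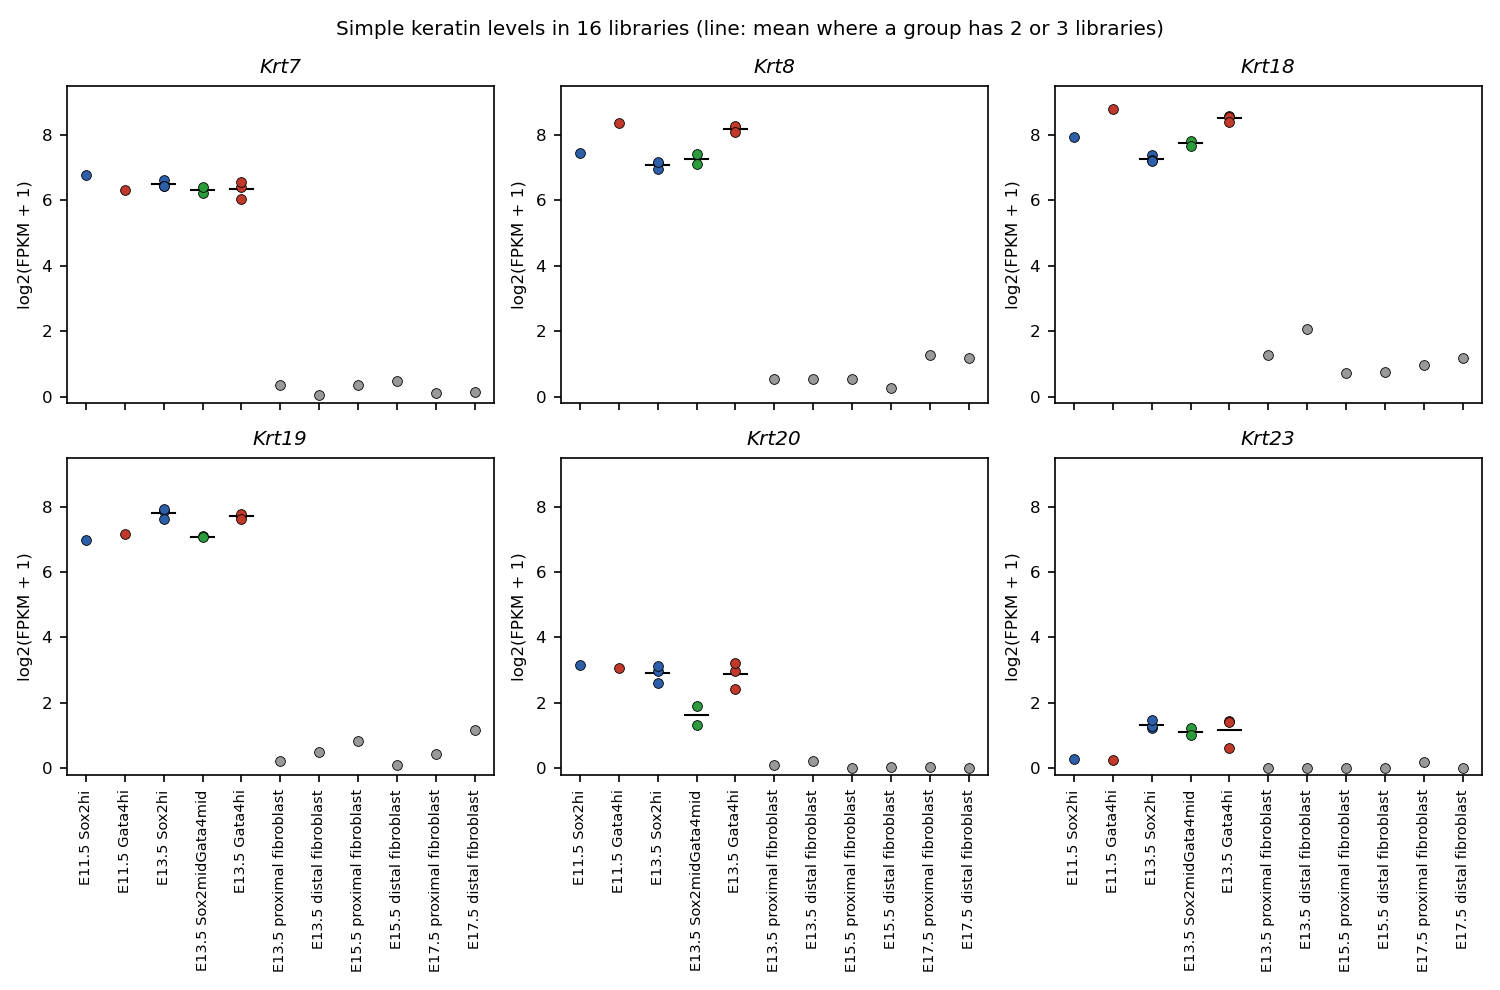
Level of each of the 6 simple keratins, as log2(FPKM + 1), in the 16 libraries by group; each point is a library and a line marks the mean of a group with more than 1 library. *Krt8* and *Krt18* sit highest in both Gata4hi groups, *Krt19* and *Krt20* dip in Sox2midGata4mid cells at E13.5, *Krt7* is level across the epithelial groups, and all fibroblast values lie below the epithelial ones of the same gene, at 3.21 FPKM or less.

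The first question is how the Gata4hi and Sox2hi gates, which mark the opposite ends of the stomach epithelium, differ at E13.5. *Krt8* and *Krt18* were higher in Gata4hi cells, while *Krt7*, *Krt19*, *Krt20* and *Krt23* did not pass the test. *Krt18* was at 166, 151 and 146 FPKM in the 3 Sox2hi libraries, at 226 and 203 in the Sox2midGata4mid libraries and at 383, 372 and 337 in the Gata4hi libraries. Its 3 groups did not overlap, and the Sox2midGata4mid libraries lay between the others. *Krt8* was at 140, 125 and 142 FPKM in Sox2hi, 171 and 139 in Sox2midGata4mid and 294, 309 and 271 in Gata4hi cells. For *Krt8* all Gata4hi libraries lay above all others, and the Sox2hi and Sox2midGata4mid libraries overlapped. On the log2(FPKM + 1) scale, *Krt18* was higher in Gata4hi than in Sox2hi cells by 1.23 (SE 0.08, 95% interval 1.04 to 1.42, limma adjusted p = 5.6e-05) and *Krt8* by 1.09 (SE 0.10, 0.86 to 1.33, adjusted p = 2.2e-04). Both calls held under all 17 alternatives, over which the difference ran from 1.08 to 1.29 for *Krt18* and from 0.91 to 1.18 for *Krt8*. Thus 2 of 6 members were called, against 21.6% of the 13127 genes tested (14.9% higher and 6.7% lower). The median difference over all these genes was 0.08. These are bulk RNA levels, in which fewer cells of a type and less RNA per cell cannot be told apart.

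The members that did not pass the test had levels close to each other in the 2 gates, with intervals that leave room for modest differences. *Krt7* was at 97.4, 86.3 and 85.7 FPKM in Sox2hi, 74.5 and 84.2 in Sox2midGata4mid and 83.8, 93.7 and 65.7 in Gata4hi cells. These values overlapped in every pair of groups. The difference of Gata4hi from Sox2hi cells was −0.16 (SE 0.13, interval −0.47 to 0.15, limma adjusted p = 0.464). *Krt19* was at 232, 198 and 244 FPKM in Sox2hi and 209, 219 and 198 in Gata4hi cells, which overlapped, with a difference of −0.10 (SE 0.09, −0.31 to 0.10, adjusted p = 0.486). On the TPM scale, where each library is set to the same sum, the *Krt19* difference was −0.26 and passed (adjusted p = 0.0477). *Krt20* differed by −0.03 (−0.62 to 0.56, adjusted p = 0.956), and *Krt23* by −0.17 (−0.79 to 0.44, adjusted p = 0.714). *Krt23* was at 1.36, 1.45 and 1.79 FPKM in Sox2hi and 0.532, 1.74 and 1.68 in Gata4hi cells, so 1 library of the latter stood below the rest. A list of 8 mesothelial genes, which mark the outer lining of the organ, summed to 2.73 to 3.62 FPKM in Sox2hi, 2.66 to 4.08 in Sox2midGata4mid and 9.28 to 11.47 in Gata4hi cells, led in Gata4hi cells by *Msln* (6.93, 7.93 and 9.86 FPKM, against 0.721 to 0.857 in Sox2hi cells). *Bnc1*, on the same list, ran the other way (1.73, 1.12 and 1.05 FPKM in Sox2hi and 0.0364 to 0.0593 in Gata4hi cells), as did *Upk1b* (0.525 to 0.810 and 0.151 to 0.252 FPKM), and *Wt1* was at most 0.241 FPKM at E13.5. The part of such cells in the *Krt8* and *Krt18* differences was not tested.

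**Figure D2:**
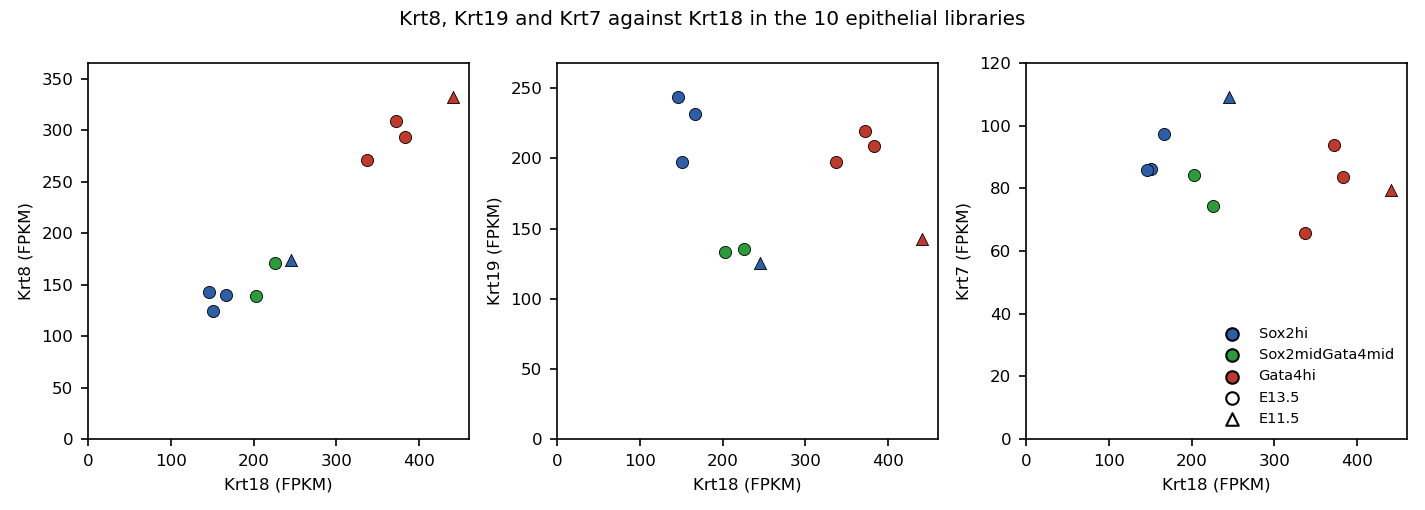
*Krt8*, *Krt19* and *Krt7* against *Krt18* (all in FPKM, axes from 0) in the 10 epithelial libraries; colours are the sorted gates, circles E13.5 and triangles E11.5. *Krt8* climbs with *Krt18*, from the E13.5 Sox2hi libraries near 150 FPKM of *Krt18* to the Gata4hi libraries above 330. The E11.5 Sox2hi library lies between, at 246 FPKM of *Krt18*. *Krt19* and *Krt7* do not follow *Krt18*.

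*Krt8* and *Krt18*, the partner chains, varied together over the epithelial libraries. Their log2 levels had a Pearson correlation of 0.97 over the 10 libraries, which share groups and scaling, so this is a description. The *Krt8* to *Krt18* ratio within a library, which no scaling can move, was 0.845, 0.826 and 0.977 in Sox2hi, 0.758 and 0.683 in Sox2midGata4mid and 0.767, 0.829 and 0.805 in Gata4hi cells. The Sox2hi and Gata4hi libraries overlapped in this ratio. *Krt7* correlated with *Krt8* at −0.30 and with *Krt18* at −0.27, *Krt19* with *Krt18* at −0.19 and with *Krt8* at 0.02, and *Krt7* with *Krt20* at 0.55. The other expressed genes within 150 kb of the pair did not pass the same test: *Eif4b*, a translation initiation factor, differed by 0.18 (limma adjusted p = 0.0849), *Tns2* by −0.14 (0.676), *Spryd3* by 0.30 (0.301) and *Csad* by 0.52 (0.0993). By contrast, the other expressed keratins within 150 kb of *Krt19* were much lower in Gata4hi cells, while *Krt19* itself did not pass. *Krt15* was at −3.43 (limma adjusted p = 6.2e-05) and *Krt17* at −3.10 (0.0043). Near *Krt7*, *Krt80* was lower, at −1.18 (0.0024), *Nr4a1* lower, at −0.51 (0.0345) and *Atg101* higher by 0.47 (0.0205).

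The second question is whether the intermediate Sox2midGata4mid cells lie between the other gates. For *Krt18* they did, and for *Krt19* and *Krt20* they lay below both. *Krt19* was at 136 and 133 FPKM in Sox2midGata4mid cells, against 198 to 244 in Sox2hi and 198 to 219 in Gata4hi cells. *Krt20* was at 1.51 and 2.76 FPKM there, against 6.77, 7.75 and 5.13 in Sox2hi and 6.89, 8.23 and 4.37 in Gata4hi cells. Neither gene's Sox2midGata4mid libraries overlapped the other groups. Against Sox2hi cells, *Krt19* was lower, at −0.73 (SE 0.10, interval −0.96 to −0.50, limma adjusted p = 0.0067), *Krt20* at −1.28 (SE 0.28, −1.94 to −0.62, adjusted p = 0.0430) and *Krt18* was higher by 0.47 (SE 0.09, 0.26 to 0.68, adjusted p = 0.0268). So 3 of 6 members were called, against 5.55% of all genes tested (2.54% higher and 3.01% lower). *Krt8* (0.18, −0.08 to 0.44, adjusted p = 0.394), *Krt7* (−0.18, −0.52 to 0.17, 0.548) and *Krt23* (−0.23, −0.92 to 0.46, 0.720) did not pass. With only 2 Sox2midGata4mid libraries these calls were fragile. The *Krt18* call was lost in 9 of 17 alternatives and the *Krt20* call in 12 of 17, while the *Krt19* call was lost in 1, without Sox2midGata4mid replicate 1 (adjusted p = 0.0575).

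Against Gata4hi cells, 4 of 6 members were lower in Sox2midGata4mid cells, beside 13.6% of all genes called (2.59% higher and 11% lower). *Krt8* was lower, at −0.91 (SE 0.11, interval −1.17 to −0.65, limma adjusted p = 0.0037), *Krt18* at −0.76 (SE 0.09, −0.97 to −0.55, 0.0036), *Krt19* at −0.63 (SE 0.10, −0.86 to −0.40, 0.0076) and *Krt20* at −1.25 (SE 0.28, −1.91 to −0.59, 0.0277). *Krt8* and *Krt18* stayed called under all 17 alternatives, over which *Krt8* ran from −1.06 to −0.57 and *Krt18* from −0.84 to −0.46, both smallest with quantile normalization. *Krt19* was lost in 2, with quantile normalization (−0.32, adjusted p = 0.0741) and without Sox2midGata4mid replicate 2 (0.0596), and *Krt20* in 8. *Krt7* differed by −0.02 (−0.36 to 0.33, adjusted p = 0.958) and turned to 0.27 on the TPM scale, and *Krt23* by −0.05 (−0.74 to 0.64, 0.932), turning to 0.15. The median over all genes was −0.13 here and 0.13 on the TPM scale, so part of each difference moves with the scaling. The comparisons of Sox2midGata4mid cells with Sox2hi and with Gata4hi cells share the same pair of libraries and are not independent. The 8 epithelial markers summed to 874 to 939 FPKM in this gate, against 1019 to 1028 in Sox2hi and 1068 to 1173 in Gata4hi cells. Whole libraries also summed lowest here (436296 to 445651 FPKM, against 470759 to 500194 and 536293 to 545316), and the marker sums are not adjusted for this. Of the 8, 2 were called lower than in Sox2hi and 3 than in Gata4hi cells (3.01% and 11% of all genes), and none higher. *Cdh1* was lower in both, at −0.49 (limma adjusted p = 0.0179) and −0.38 (0.0264). Without a call, *Cldn6* was above Sox2hi cells by 0.27 and *Cldn4* above Gata4hi cells by 0.10. The part of these markers in the *Krt19* and *Krt20* differences was not tested. The labels of replicate 3 are written in another style than those of replicates 1 and 2, no Sox2midGata4mid library has a replicate 3, and whether the style marks a batch is not stated. With replicates 1 and 2 only, the differences from Sox2hi cells were −0.67 for *Krt19* (limma adjusted p = 0.0341), −1.42 for *Krt20* (0.0480) and 0.43 for *Krt18* (0.0810).

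**Figure D3:**
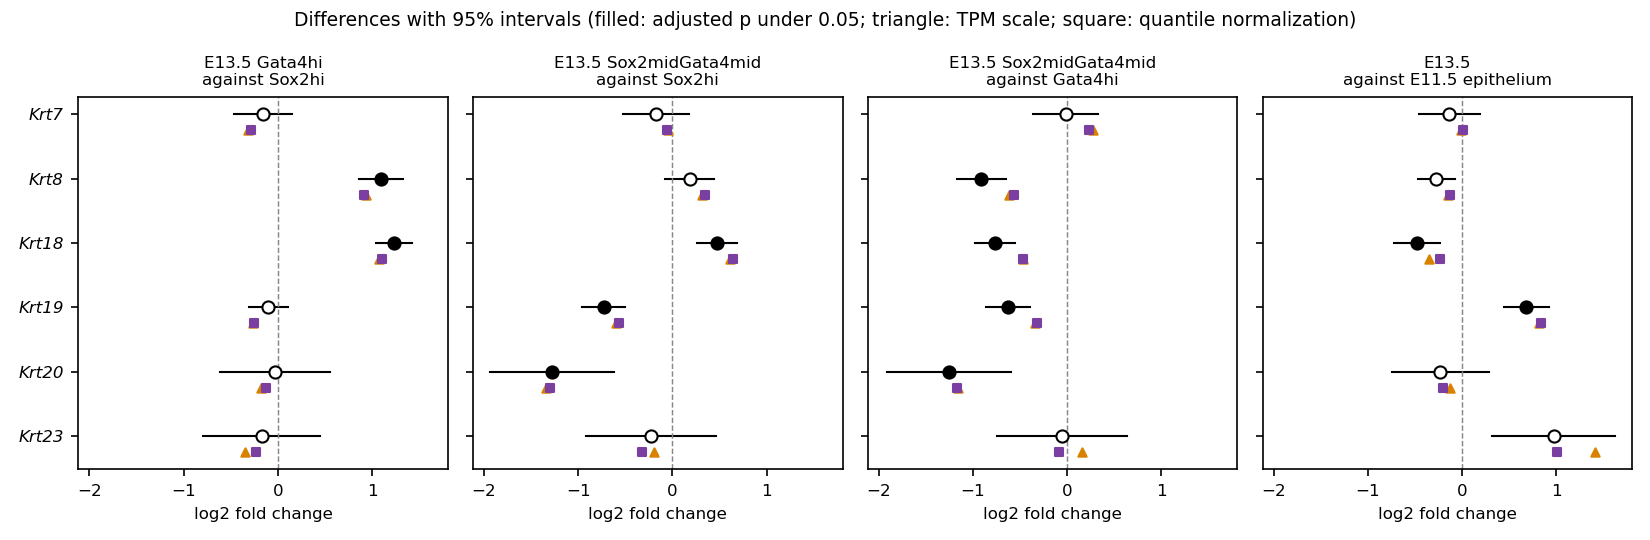
Difference of each simple keratin in log2(FPKM + 1) in 4 comparisons, as circles with 95% intervals from limma, filled where the adjusted p is under 0.05; triangles give the TPM scale and squares quantile normalization. *Krt8* and *Krt18* lie above 0 for Gata4hi against Sox2hi cells on all 3 scales, and *Krt19* and *Krt20* lie below 0 for Sox2midGata4mid cells in both comparisons.

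Shares of the simple keratins within a library do not depend on scaling, whereas their sums do. At E13.5 the *Krt19* share below set the Sox2hi libraries apart, and the *Krt7* share the Gata4hi libraries. The 6 members together came to 644, 569 and 625 FPKM in Sox2hi, 610 and 563 in Sox2midGata4mid and 977, 1004 and 878 in Gata4hi cells at E13.5. Of the FPKM of the whole library this was 0.121% to 0.134%, 0.129% to 0.137% and 0.164% to 0.186%, in the same order. *Krt19* made up 58.3%, 56.7% and 62.6% of *Krt18* plus *Krt19* in Sox2hi, 37.6% and 39.6% in Sox2midGata4mid and 35.3%, 37.1% and 37.0% in Gata4hi cells. *Krt19* was thus the larger of these type I messages only in the Sox2hi libraries of E13.5, among the 10 epithelial libraries. *Krt7* made up 41.0%, 40.9% and 37.6% of *Krt7* plus *Krt8* in Sox2hi, 30.3% and 37.8% in Sox2midGata4mid and 22.2%, 23.3% and 19.5% in Gata4hi cells. For this share the Sox2midGata4mid libraries overlapped the Sox2hi but not the Gata4hi libraries. Sox2hi and Gata4hi libraries did not overlap in either share, and the exact two-sided permutation p was 0.1 for each, the smallest that 3 against 3 libraries allow (0.24 adjusted over 12 such comparisons). No comparison with 2 Sox2midGata4mid libraries can go below 0.2. Of all keratin FPKM in a library, the members made up 78.0% to 80.3% in Sox2hi, 95.1% and 95.8% in Sox2midGata4mid and 98.0% to 98.5% in Gata4hi cells. The ratio of all type II to all type I keratin FPKM was 0.479 to 0.522 in Sox2hi, 0.625 and 0.647 in Sox2midGata4mid and 0.616 to 0.657 in Gata4hi cells, so type I messages exceeded type II messages throughout.

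**Figure D4:**
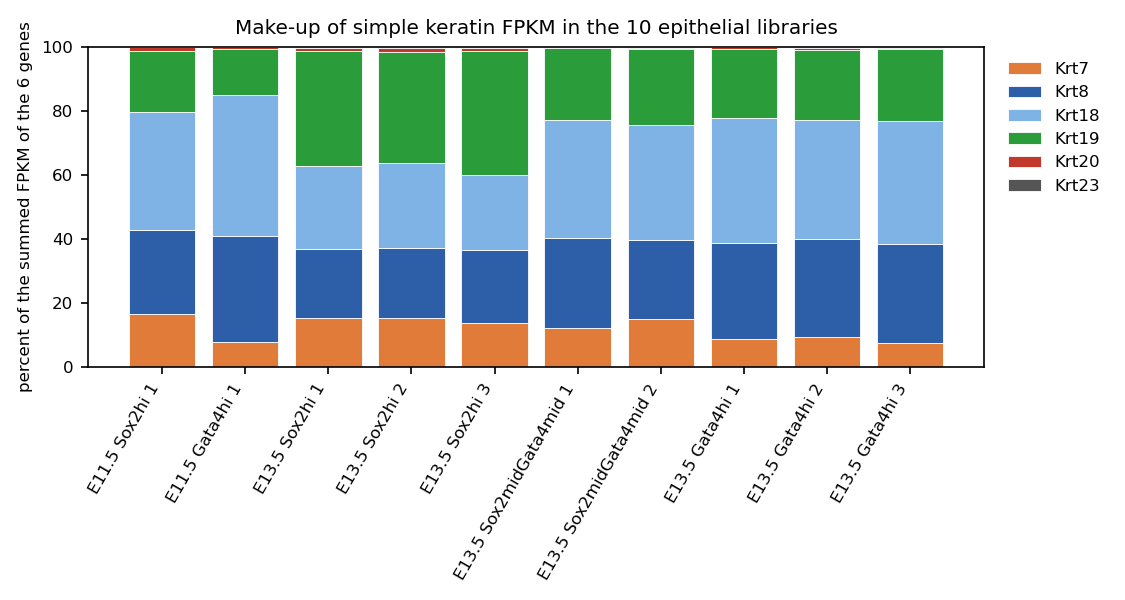
Share of the summed FPKM of the 6 simple keratins that each gene made up (stacked bars from 0 to 100 percent) in the 10 epithelial libraries. *Krt19* takes 34.8% to 39.02% in Sox2hi cells at E13.5 and at most 23.7% in all the other libraries, and *Krt8* takes 30.1% to 30.9% in Gata4hi cells at E13.5.

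At E11.5 there was 1 library per gate and no replicate. *Gata4* was at 25.9 FPKM in the Sox2hi and 229 in the Gata4hi library, against 3.21 to 7.26 and 157 to 199 FPKM at E13.5. Gates of the same name thus differed between the stages. *Krt8* was at 174 FPKM in Sox2hi and 332 in Gata4hi cells, *Krt18* at 246 and 441, *Krt7* at 109 and 79.5, *Krt19* at 126 and 143, *Krt20* at 7.98 and 7.39 and *Krt23* at 0.222 and 0.204. The differences of Gata4hi from Sox2hi were 0.93 for *Krt8*, 0.84 for *Krt18*, −0.45 for *Krt7*, 0.18 for *Krt19* and −0.10 for *Krt20*, with no test, so none reached a 2-fold difference, as 4.9% of genes did upwards and 3.86% downwards. The *Krt7* share of *Krt7* plus *Krt8* was 38.5% and 19.3%, close to the E13.5 gates, whereas the *Krt19* share of *Krt18* plus *Krt19* was 33.9% and 24.4%, below every E13.5 library. Whether the difference between gates changed from E11.5 to E13.5 was tested as an interaction, and no member was called (limma, 0 of 6, against 1.26% of all genes called, 0.778% upwards and 0.48% downwards). At an unadjusted p under 0.05 there was 1 of 6, beside 12.7% of all genes, a share near the background. That member was *Krt18*, at 0.39 (interval 0.01 to 0.77, adjusted p = 0.385). For *Krt8* the interaction was 0.17 (−0.22 to 0.56, adjusted p = 0.766).

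For the stage comparison the gate label was a covariate, which does not make the gates alike between the stages. *Krt19* was higher at E13.5 than at E11.5 by 0.68 (SE 0.10, interval 0.44 to 0.92, limma adjusted p = 0.0148) and *Krt18* lower, at −0.47 (SE 0.10, −0.72 to −0.23, 0.0441). These were 2 of 6 members, against 5.69% of 13114 genes (2.02% higher and 3.67% lower). *Krt23* was at 0.222 and 0.204 FPKM at E11.5 and at 0.532 to 1.79 in the Sox2hi and Gata4hi libraries of E13.5, with no overlap, but its difference of 0.97 (0.32 to 1.63) missed the threshold (adjusted p = 0.0872). It passed in 2 of 13 alternatives, with a pseudocount of 0.1 (2.202, adjusted p = 0.0493) and without Gata4hi replicate 1 of E13.5 (1.11, 0.0452). *Krt8* (−0.28, −0.47 to −0.08, adjusted p = 0.1003), *Krt7* (−0.13, 0.599) and *Krt20* (−0.23, 0.561) did not pass either, and the *Krt7* difference was 0.02 with quantile normalization. The *Krt18* call was lost in 12 of 14 alternatives, among them the TPM scale (−0.35, adjusted p = 0.0877), and the *Krt19* call in 2, without the E11.5 Sox2hi library (0.54, 0.121) and with only replicate 3 of E13.5 (0.71, 0.358). Labels of the E11.5 libraries are written in the style of E13.5 replicate 3. Stage therefore cannot be told apart from whatever the style marks, save with only replicate 3 of E13.5. In that fit 0 of 13052 genes were called. Lists of genes known from other organs and from blood summed higher in the E11.5 libraries than in the epithelial libraries of E13.5. A list of 5 liver, pancreas and intestine genes summed to 95.6 FPKM in the Sox2hi library (*Afp* 65.5, *Alb* 29.9) and 14.2 in the Gata4hi library (*Cdx2* 7.51). In the E13.5 epithelial libraries the sum was 0.192 to 6.05. A list of 5 blood genes summed to 5.91 and 50.3 FPKM (*Hbb-y* 34.7 in the latter), against at most 2.29 in the E13.5 epithelial libraries. In the fibroblast libraries this sum ran from 1.29 to 19.98 FPKM. Their part in the stage differences was not tested.

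In the PDGFRα-positive fibroblasts every member was low. *Krt18* was at 1.40 FPKM proximally and 3.21 distally at E13.5, 0.638 and 0.676 at E15.5 and 0.961 and 1.26 at E17.5. *Krt8* was at 0.441, 0.458, 0.449, 0.200, 1.40 and 1.29 FPKM in the same order. The highest fibroblast value was 1.23 FPKM for *Krt19*, 0.406 for *Krt7*, 0.173 for *Krt20* and 0.150 for *Krt23*, and *Krt23* was listed at 0 in 5 of the 6 libraries. Every epithelial library lay above every fibroblast library for all 6 genes. Apart from *Krt18* (mean 1.36 FPKM in the fibroblasts), the members tested passed the filter only through the epithelium, and *Krt23* did not pass it. All these differences are given as a check of the sort rather than a result. They were 6.99 for *Krt19*, 6.80 for *Krt8*, 6.69 for *Krt18*, 6.14 for *Krt7* and 2.40 for *Krt20*. Of 13666 genes, 56.1% were called in this comparison (29.1% higher and 27% lower in epithelium). The 8 epithelial marker genes summed to 1.65 to 5.42 FPKM in the fibroblasts, and the part of epithelial cells in the low fibroblast values was not tested. Between distal and proximal fibroblasts *Krt18* was the only member above the filter, at 0.35 (SE 0.29, interval −0.40 to 1.101, limma adjusted p = 0.712). Of 12900 genes 0% were called in that comparison, and 1287 genes had an unadjusted p under 0.05.

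Genes of the same filament system were read from the same tests, with no test of a list as a whole. Of 11 stratified keratins 4 were tested, and 3 were lower in Gata4hi than in Sox2hi cells, with a median of −3.27. Over all genes 14.9% were higher and 6.7% lower in this comparison, with a median of 0.08. *Krt15*, a basal type I keratin, was at 132, 98.0 and 111 FPKM in Sox2hi, 16.1 and 19.3 in Sox2midGata4mid and 13.4, 10.1 and 6.47 in Gata4hi cells. *Krt5*, the basal type II keratin, was lower, at −3.57 (limma adjusted p = 2.6e-04), and its usual partner *Krt14* was at most 0.241 FPKM in the epithelial libraries. The same 3 genes were lower in Sox2midGata4mid than in Sox2hi cells (*Krt15* −2.61, *Krt17* −2.69, *Krt5* −2.64), beside 3.01% of all genes. In Sox2hi cells *Krt15* thus remained below *Krt8*, *Krt18* and *Krt19* in each library of E13.5, but lay above *Krt7* in each. *Krt10*, a keratin of suprabasal skin layers, did not pass (−0.46, adjusted p = 0.234).

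Of 14 desmosome and plakin genes, which anchor keratins to cell junctions, 11 were tested and 3 were higher and 7 lower in Gata4hi than in Sox2hi cells, with a median of −0.59 (over all genes 14.9% and 6.7%, with a median of 0.08). *Perp*, a desmosomal membrane protein of stratified epithelia, was at 55.7, 48.7 and 74.8 FPKM in Sox2hi and 11.9, 11.49 and 10.4 in Gata4hi cells (−2.29, adjusted p = 1.3e-04 by limma). *Evpl*, which encodes envoplakin of the cornified envelope, was lower, at −1.18 (3.5e-04). *Dsc2* and *Pkp2*, the desmocollin and plakophilin of simple epithelia and heart, were higher by 1.27 (0.0028) and 1.19 (7.4e-04). *Jup*, the plakoglobin gene and the highest of the list, was at 57.9 to 82.1 FPKM in Sox2hi and 77.2 to 100.7 in Gata4hi cells and differed by 0.34 (0.206). *Dsg2*, named after its values were seen as the third gene called higher, was higher by 0.31 (0.0187), a call that was lost on the TPM scale and with quantile normalization. In Sox2midGata4mid cells 5 of the 11 were lower than in Sox2hi cells (*Perp* −2.57, *Evpl* −0.97, *Ppl* −0.95, *Pkp3* −0.81, *Dsp* −0.77), beside 3.01% of all genes, and 4 were lower than in Gata4hi cells (*Dsc2* −1.37, *Jup* −0.87, *Pkp2* −0.62, *Dsg2* −0.33), beside 11% of all genes, of which 1 was left on the TPM scale.

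Of 12 other intermediate filament genes 7 were tested for Gata4hi against Sox2hi cells, with 2 higher and 2 lower and a median of −0.08 (over all genes 14.9% higher and 6.7% lower). *Nes*, the filament of progenitor and neural cells, was lower, at −2.41 (limma adjusted p = 1.4e-04) and *Lmna*, a nuclear lamin, at −0.86 (0.0063). *Synm*, which joins desmin and vimentin filaments, was higher by 2.38 (8.4e-04) and *Nefm*, a neurofilament chain, by 1.73 (0.0019). *Lmnb1* had the highest level and differed by −0.15 (0.188), a difference that passed at −0.31 on the TPM scale. Among 9 regulators of keratin filaments, *Hspb1*, a small heat shock protein that binds filaments, was lower, at −2.78 (2.4e-04) and *Ywhah*, a 14-3-3 protein, higher by 0.49 (0.0189, lost on the TPM scale). *Ywhae*, the regulator with the highest level, differed by 0.09 (0.488). The 9 regulators thus had 1 called each way, with a median of 0.19. *Hspb1* was also lower in Sox2midGata4mid than in Sox2hi cells (−2.59).

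The genes most like each member over the 10 epithelial libraries were found by Pearson correlation of log2(FPKM + 1) among 9411 genes, as a description. The nearest to *Krt8* were *Slc9a3r1*, an apical scaffold protein gene (r = 0.99, 47.8 to 89.7 FPKM), *Pvrl2* (0.99) and *Golm1* (0.98). *Krt18* was nearest to *Ambp*, a plasma protein precursor gene (0.99, 0.292 to 137 FPKM), *Cited2* (0.99) and *Large* (0.99). *Krt19* was nearest to the E-cadherin gene *Cdh1* (0.98, 94.8 to 153 FPKM), *S100a11* (0.96) and *Rplp1* (0.96). *Krt7* had weaker neighbours in *Zfp777* (0.87), *Phldb1* (0.85) and RP23-124B2.7 (0.85), and *Krt20* had *Nudt9* (0.94), *Exosc8* (0.94) and *Ssna1* (0.93). *Ambp* differed in size from *Krt18*, with a mean of 0.628 FPKM in Sox2hi, 5.52 in Sox2midGata4mid and 93.7 in Gata4hi cells.

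Near-identical copies can take or lend reads. The processed pseudogene *Krt8-ps* shared 941 bases with *Krt8* at 98.6% identity and was at most 1.26 FPKM in any library. *Gm5200* shared 1267 bases with *Krt18* at 90.45% identity and was not analysed here. How the authors' counting split shared reads is not stated, so the reads that *Krt8* and *Krt18* share with these copies are uncertain.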

How the data were processed

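The deposited values are FPKM, which the authors made by trimming reads with cutadapt 1.16, aligning with HISAT2 2.1.0 to mm10 (GRCm38) and quantifying with Cufflinks 2.2.1; the normalization mode and strand setting are not given in the sources used here. Of 53773 entries, 1 was empty and 61 repeated an identifier, leaving 53711 genes. Within each comparison, genes averaging 1 FPKM or more were analysed as log2(FPKM + 1) with limma 3.58.1 in R 4.3.3, with a variance trend and Benjamini-Hochberg adjustment over all genes tested (called under 0.05). A fold change on this scale understates the change of low genes. The E13.5 groups were fitted together, and stage was fitted with the gate as a covariate. Tested on simulated E13.5 data with 200 of 13127 genes changed, limma recovered 78% of changes at 2-fold and 94.6% at 4-fold, with 4.17% false among the genes called. The changed genes had a mean log2 level above that of 5 FPKM and were changed in the Gata4hi libraries only. The simulation therefore did not cover low genes such as *Krt23*, the contrasts with 2 Sox2midGata4mid libraries or a shift in scaling.

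The members, the gene lists and the tests were chosen with earlier results of these data known. The genes named were the members, the 3 genes most like each member averaging 5 FPKM or more, up to 4 called members of each list with the largest difference and its highest member, other keratins averaging 5 FPKM or more, and expressed neighbours. Further genes, such as markers, *Krt14* and those listed beside a count, were named after their values were seen. Replicate numbers are shared between groups. Deviations of same-numbered Sox2hi and Gata4hi libraries correlated at 0.113, 0.119 and 0.163, against −0.099 to −0.016 for the others. Each deviation is from the mean of its own group, so positive values for some pairs force negative ones for others. These values cannot decide whether the numbers mark pairs. The fits and permutation tests reported have no block. A replicate block was run as an alternative for the limma fits of the E13.5 epithelial groups, and not for the permutation tests. With Sox2midGata4mid cells only 2 numbers were shared. The ratios within a library were added after seeing the data and compared by exact permutation tests. Copies were found with blastn (at least 500 bases at 90% identity).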

Additional observations from a re-analysis of the deposited data

How the results depend on the processing

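The number of members called was 2 for Gata4hi against Sox2hi cells in the alternatives other than the TPM scale. On the TPM scale *Krt19* was called there as well. For epithelium against fibroblasts it was 5, and these 5 stayed called in every alternative, with *Krt23* below the filter of the main fit. For the interaction and for the fibroblasts it was 0 in every alternative run. For Sox2midGata4mid against Sox2hi cells it was 3, and became 1 with no filter on low values, 1 with no variance trend, 1 with only the groups compared in the fit, and 0 to 3 without each library in turn. Against Gata4hi cells it was 4, and became 2 with quantile normalization and 2 to 4 without each library. For E13.5 against E11.5 it was 2, and became 1 on the TPM scale, with quantile normalization, with no filter or with no trend, 0 with only replicate 3 of E13.5, and 0 to 2 without each library.

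Directions turned only for differences that had not passed. For Gata4hi against Sox2hi cells *Krt20* became 0.0496 with replicates 1 and 2 only and ran from −0.20 to 0.19 without each library, and *Krt23* from −0.32 to 0.10. For Sox2midGata4mid against Gata4hi cells *Krt7* became 0.27 on the TPM scale and 0.23 with quantile normalization and ran from −0.16 to 0.0933 without each library, and *Krt23* became 0.15 on the TPM scale, 0.0467 with the replicate block and 0.0758 with replicates 1 and 2 only, and ran from −0.33 to 0.0905. For the stage, *Krt7* became 0.0159 with quantile normalization and ran from −0.28 to 0.0131, and in the interaction *Krt20* ran from −0.10 to 0.29 and *Krt23* from −0.30 to 0.12. In all, 490 member values kept direction and call, 46 lost a call, 3 gained one and 20 turned. The cause was not tested.

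The replicate block changed no call of a member. The scale moved the median of all genes from 0.08 to −0.05 (TPM) for Gata4hi against Sox2hi cells and from −0.13 to 0.13 for Sox2midGata4mid against Gata4hi cells, and the share of calls that were higher from 69.0% to 47.6% and from 19.1% to 67.9%. For Sox2midGata4mid against Sox2hi cells that share moved from 45.7% to 67.3%, for the stage from 35.5% to 65.0% and for epithelium against fibroblasts from 51.9% to 65.7%. Depth is unknown from FPKM, and its effect on single members was not tested.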
